A study of Mus musculus with 3 samples.

Results

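The genes described here make non-essential amino acids and one-carbon units, load amino acids onto tRNAs in the cytosol, or encode the ATF4 group of stress factors. They were taken from a list of 34 gene symbols, and each gene was read from its brightest probe set annotated to that gene alone. Of the 34 genes, 33 had such a probe set and 32 were measured, out of 18194 named genes and 12597 measured genes on the array. The exceptions were Pycr1, which was not matched to a single-gene probe set, and Cth, which was under the floor on every array. Measured means that at least 1 array reached the floor, a signal of 110.4, which was the median of all signals.

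The study profiled LSK cells, the lineage-negative, Sca-1 positive, Kit positive mouse cells among which blood stem cells and early progenitors are found. It has 3 arrays: 1 of cells lacking both p53 and Mef (DKO), 1 of cells lacking p53 (p53 KO) and 1 of wild type cells (WT), where Mef is the ETS factor that Elf4 encodes. Strain, age, the kind of knockout allele, and how many animals or sorts each array stands for are not given in the sources used here. With 1 array per genotype no difference has an error or a test, and each is a difference between a pair of arrays. In bulk RNA of this kind, fewer cells of a type and less RNA per cell cannot be told apart.

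Kit was measured on all 3 arrays, and all 7 named genes of the LSK and progenitor list reached the floor on each. Their summed signal was 26982 on DKO, 13418 on p53 KO and 16289.8 on WT. The erythroid and granulocyte lists were also measured on every array, with 7 of 7 named genes of each at the floor or over it. Of the T and NK cell list, Cd3e, Cd3g and Cd4 were under the floor on all arrays. Nkg7 (2724 on DKO, 1667 on p53 KO and 1176 on WT) and Klrd1 (333, 540 and 171) were over it on all 3. Cd8a was over it on p53 KO (284) and WT (254) alone. The summed erythroid signal was 16958 on DKO, 82989.7 on p53 KO and 58148 on WT, and the summed granulocyte signal was 74005, 128827 and 72134 in the same order of arrays. The granulocyte genes split for DKO against WT, with 3 higher, up to a log2 difference of 1.53 (Elane), and 4 lower, down to -1.19 (Camp). Of all measured genes 55.9% were higher and 41.1% lower in that comparison. The Elf4 probe sets read 151 and 129 on the array labelled DKO, 182 and 173 on p53 KO and 57.4 and 74.3 on WT, so they do not check that label. The median signal was 129 on DKO, 105 on p53 KO and 97.995 on WT. Actin control probe sets gave 3′ to 5′ signal ratios of 9.19, 6.20 and 8.29 in the same order, lowest on p53 KO. Gapdh control probe sets gave 5.90, 6.61 and 5.85, highest on p53 KO. The controls thus ranked the arrays differently, and neither these ratios nor the median signal was tested against the results. The p53 transcript was not analysed here.

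Cells make serine from a glycolytic intermediate in consecutive steps catalysed by Phgdh, Psat1 and Psph. Serine then gives its side chain carbon to folate through the Shmt and Mthfd enzymes, which supplies nucleotide synthesis. When an amino acid runs short, uncharged tRNA activates the kinase GCN2, eIF2alpha is phosphorylated, and translation of ATF4 rises. ATF4 then activates genes for amino acid synthesis, amino acid uptake and tRNA charging by binding C/EBP-ATF response elements near their start sites. Blood-forming cells in cycle draw on the same enzymes to make protein and nucleotides.

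The core letters of that element, TGATGNAA, were looked for on both strands in the RefSeq windows (GRCm38.p6) that run from 250 bases before to 50 bases after each gene start. Windows were found for 27 of the 34 genes, and 10 of the 27 genes (37.0%) held a match, beside 4.51% of the 27025 genes in that table. By role, these were 5 of 9 tRNA synthetases with a window (Aars, Gars, Iars, Tars and Yars), 2 of 5 ATF4 stress factors (Chac1 and Trib3), 2 of 3 genes of asparagine, aspartate and arginine synthesis (Asns and Got1), and Pycr1. Phgdh, Psat1, Psph and the 4 one-carbon genes had none in this window. The 6 windows shown are those with a match whose genes differed most between any pair of arrays, cut at 30 bases after the start, in gene orientation, with matches in capitals.
Asns (chr6:7693180-7693459, minus strand): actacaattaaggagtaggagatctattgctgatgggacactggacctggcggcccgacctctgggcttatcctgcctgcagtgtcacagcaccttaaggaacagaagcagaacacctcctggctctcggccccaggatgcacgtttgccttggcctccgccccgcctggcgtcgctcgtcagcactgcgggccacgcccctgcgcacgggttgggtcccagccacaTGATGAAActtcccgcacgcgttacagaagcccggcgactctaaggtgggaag
Aars (chr8:111033592-111033871, plus strand): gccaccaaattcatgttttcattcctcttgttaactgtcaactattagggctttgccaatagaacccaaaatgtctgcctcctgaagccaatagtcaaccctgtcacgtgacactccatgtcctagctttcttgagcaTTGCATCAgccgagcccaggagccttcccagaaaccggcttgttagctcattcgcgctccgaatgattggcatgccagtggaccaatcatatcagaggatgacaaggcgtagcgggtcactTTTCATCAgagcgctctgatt
Chac1 (chr2:119350992-119351271, plus strand): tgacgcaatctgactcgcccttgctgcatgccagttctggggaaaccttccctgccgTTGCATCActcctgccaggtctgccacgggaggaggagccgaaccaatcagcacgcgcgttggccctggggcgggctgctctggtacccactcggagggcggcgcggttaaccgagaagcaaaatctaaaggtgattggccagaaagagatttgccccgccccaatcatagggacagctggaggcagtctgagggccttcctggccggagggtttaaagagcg
Gars (chr6:55037751-55038030, plus strand): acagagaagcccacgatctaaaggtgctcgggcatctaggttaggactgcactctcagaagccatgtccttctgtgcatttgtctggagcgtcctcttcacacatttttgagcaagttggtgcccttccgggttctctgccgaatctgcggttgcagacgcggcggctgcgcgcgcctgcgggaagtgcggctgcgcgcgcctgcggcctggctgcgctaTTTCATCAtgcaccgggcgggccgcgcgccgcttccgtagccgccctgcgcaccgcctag
Yars (chr4:129189653-129189932, plus strand): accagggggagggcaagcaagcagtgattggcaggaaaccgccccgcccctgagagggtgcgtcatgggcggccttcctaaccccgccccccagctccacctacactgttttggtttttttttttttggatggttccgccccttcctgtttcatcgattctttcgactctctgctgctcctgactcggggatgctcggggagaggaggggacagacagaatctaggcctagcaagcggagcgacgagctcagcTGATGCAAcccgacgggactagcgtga
Trib3 (chr2:152344031-152344310, minus strand): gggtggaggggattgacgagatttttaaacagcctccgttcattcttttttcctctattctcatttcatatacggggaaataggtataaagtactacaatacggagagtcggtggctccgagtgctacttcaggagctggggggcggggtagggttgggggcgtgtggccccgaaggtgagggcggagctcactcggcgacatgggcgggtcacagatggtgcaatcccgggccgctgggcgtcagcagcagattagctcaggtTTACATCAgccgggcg
The Asns match begins 23 bases before the start. Both Aars matches, and those of Chac1, Gars and Trib3, read as the reverse complement TTNCATCA. A match describes the letters only and shows no binding.

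Of the 32 measured genes, 2 were at least 2-fold lower for DKO against WT (Asns and Mthfd1) and 2 were higher (Shmt1 and Atf5), where 3.10% of all measured genes were at least 2-fold lower and 5.22% higher. For p53 KO against WT 3 were lower (Asns, Mthfd1 and Aldh18a1) and 0 higher, beside 3.19% and 6.51% of all measured genes. Between DKO and p53 KO, taken as DKO over p53 KO throughout, 2 were lower on DKO (Asns and Ddit3) and 3 higher (Phgdh, Psat1 and Atf5), beside 5.93% and 4.10%. The all-gene split depends on the scaling: after cyclic loess it was 3.91% lower and 3.47% higher for DKO against WT, and 7.04% lower and 2.54% higher between DKO and p53 KO. The listed genes' median log2 difference was -0.31 for DKO against WT, -0.38 for p53 KO against WT and 0.01 between DKO and p53 KO, beside all-gene medians of 0.07, 0.00 and 0.11. The 3 comparisons share arrays, so their values are not independent. Of the 17 genes with another measured probe set, that probe set gave the same sign for 15 in DKO against WT, 16 in p53 KO against WT and 10 between DKO and p53 KO.

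Asparagine synthetase, Asns, differed most of all the genes described here. Its signal was 1363 on the DKO array, 3082 on p53 KO and 7258 on WT, so the 3 arrays were well apart and WT was the highest. The log2 difference was -2.41 for DKO against WT (5.33-fold lower) and -1.24 for p53 KO against WT (2.35-fold lower). Its other probe set had signals of 1361, 2478 and 5019.8 in the same order of arrays. That probe set gave -1.88 and -1.02, past 2-fold in both comparisons with WT. For DKO against p53 KO the log2 difference in Asns was -1.18 by the brightest probe set and -0.86 by the other, so this one was past 2-fold by the brightest alone. Asns is a much used readout of ATF4 activity, and its window above holds the core letters of the element 5′ of the start. ATF4 activity was not measured here, and its part in the Asns values was not tested.

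Among the one-carbon genes, Mthfd1, Shmt1 and Mthfd2 each had a different pattern. Mthfd1, the trifunctional cytosolic folate enzyme, read 7688 on DKO, 8285 on p53 KO and 19067 on WT. The knockout arrays were close to each other and WT stood above both, with log2 differences of -1.31 for DKO against WT (2.48-fold lower) and -1.20 for p53 KO against WT (2.30-fold lower). All 3 Mthfd1 probe sets were at least 2-fold lower in both, from -1.59 to -1.31 and from -1.52 to -1.20. Shmt1, the cytosolic enzyme that moves a carbon from serine to folate, ran the other way, at 2489 on DKO, 1353 on p53 KO and 1082 on WT. Its log2 difference for DKO against WT was 1.20 (2.30-fold higher), and its other measured probe sets gave 1.42 and 0.66. The mean of the 3 measured probe sets was 1.09, and the mean was 0.82 with a further probe set that was under the floor on every array and so counted as 0. For p53 KO against WT the measured Shmt1 probe sets parted, from -0.66 to 0.73. Shmt2, the mitochondrial counterpart, read 4056 on DKO, 3079 on p53 KO and 4811 on WT, with no pair 2-fold apart by that probe set. Its 4 probe sets disagreed for p53 KO against WT, running from -1.66 to 0.20. Mthfd2, the mitochondrial enzyme that is high in dividing and embryonic cells, read 1034 on DKO, 1532 on p53 KO and 1521 on WT. Its other probe set had 168 on DKO, 660.2 on p53 KO and 272 on WT, which put DKO at -1.98 against p53 KO, beside -0.57 by the brightest. DKO was thus the lowest array for Mthfd2 by either probe set, but the size depends on which is read.

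**Figure D1:**
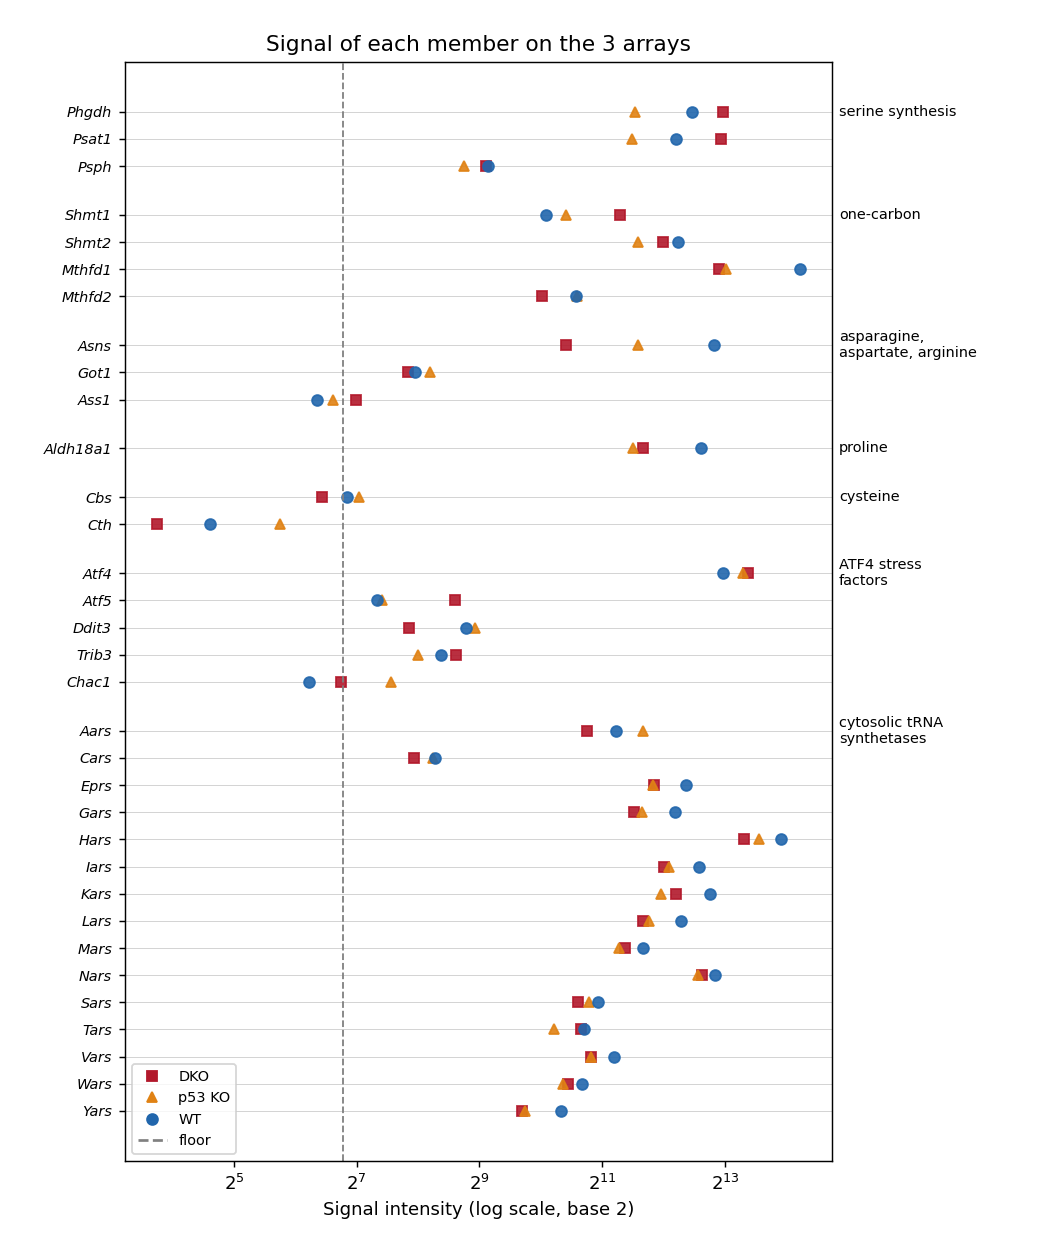
Signal intensity of each gene's brightest probe set (x axis, log scale with base 2) on the DKO (squares), p53 KO (triangles) and WT (circles) arrays, by role, with the floor dashed. WT lies to the right for Asns (7258), Mthfd1 (19067), Aldh18a1 (6257) and most synthetases, while Phgdh and Psat1 are lowest on p53 KO and highest on DKO.

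The first steps of serine synthesis were lowest on p53 KO and highest on DKO. Phgdh, the dehydrogenase that commits carbon to serine, read 8032 on DKO, 2976 on p53 KO and 5616 on WT. Psat1, the aminotransferase that follows, read 7809.9, 2867 and 4694 on the same arrays. DKO against p53 KO was therefore 1.43 on the log2 scale for Phgdh (2.70-fold higher) and 1.45 for Psat1 (2.72-fold higher). The 4 single-gene Phgdh probe sets all pointed this way but ranged from 0.46 to 1.43, and the other Psat1 probe set gave 0.70, so past 2-fold rests on the brightest probe set of each. Against WT neither gene reached 2-fold, with DKO at 0.52 for Phgdh and 0.73 for Psat1, and p53 KO at -0.92 and -0.71. The -0.92 is the widest of the Phgdh probe sets, which ran from -0.92 to -0.03 for p53 KO against WT. Psph, the phosphatase of the last step, read 555 on DKO, 430.1 on p53 KO and 563 on WT and spanned less than the other 2 genes. Most genes that mark LSK cells were lower on p53 KO than on DKO as well. Of the LSK and progenitor genes 6 of 7 were higher on DKO, where 58.8% of all measured genes were higher. For DKO against p53 KO Flt3 was at 1.66 and Kit at 0.95, while Slamf1 was at 0.08 and Procr ran the other way at -0.41. All 7 erythroid genes were lower on DKO than on p53 KO, with a median log2 difference of -2.20, where 39.7% of all measured genes were lower. The part of either list in the serine pathway values was not tested.

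In proline synthesis, Aldh18a1, which makes the precursor that Pycr1 reduces to proline, read 3231 on DKO, 2907 on p53 KO and 6257 on WT. WT was about 2-fold above the knockout arrays, with log2 differences of -0.95 for DKO against WT (1.94-fold lower) and -1.11 for p53 KO against WT (2.15-fold lower). All 5 of its probe sets were lower in both comparisons, from -1.38 to -0.20 for p53 KO and from -1.85 to -0.41 for DKO. Their mean was -0.98 for p53 KO against WT and -1.05 for DKO against WT, so the 2-fold line fell on either side of it by probe set.

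The remaining synthesis genes were dim. Got1, the cytosolic aspartate aminotransferase, read 227 on DKO, 293 on p53 KO and 248 on WT. Ass1, which makes argininosuccinate on the way to arginine, reached the floor on the DKO array alone, at 126, so its difference was at least 0.20 against either other array. Another Ass1 probe set, shared with the pseudogene Gm5424, was brighter at 325 on DKO, 463 on p53 KO and 406 on WT. Cbs, which opens the route from homocysteine to cysteine, was near the floor at 86.6 on DKO, 132 on p53 KO and 115 on WT. Cth, the next enzyme, read 13.4, 54.1 and 24.4 in the same order, so the cysteine branch gave no level well above background.

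Of the 5 ATF4 stress factors, 3 were higher and 1 lower for DKO against WT, 4 higher and 1 lower for p53 KO against WT, and 3 higher and 2 lower between DKO and p53 KO. Over all measured genes the shares higher and lower were 55.9% and 41.1%, 46.2% and 47.0%, and 58.8% and 39.7% in the same order. Atf4 itself read 10627 on DKO, 10072 on p53 KO and 8005 on WT by the brightest probe set and 1772, 3007 and 2272 by another. Its probe sets disagreed for DKO, at 0.41 and -0.36 against WT and at 0.08 and -0.76 against p53 KO, while p53 KO against WT was 0.33 and 0.40. ATF4 is controlled mainly through translation, which these arrays do not measure. Atf5, a related factor translated under the same stress, had 387 on DKO, 169.6 on p53 KO and 162 on WT. DKO alone was high, with log2 differences of 1.26 against WT and 1.19 against p53 KO, which were 0.98 and 0.97 after cyclic loess and so just short of 2-fold. Ddit3, which encodes the pro-apoptotic factor CHOP, ran opposite to Atf5, at 232 on DKO, 485 on p53 KO and 441 on WT. Its difference for DKO against p53 KO was -1.07, and -0.97 with a pseudocount in place of the floor. Its other probe set was under the floor on every array. For DKO against WT it was -0.93, or -1.14 after quantile normalization and -1.10 after cyclic loess. With the floor at the 75th percentile of signals the DKO against p53 KO difference was -0.11, since every array was then at or near the floor. Trib3, a pseudokinase that ATF4 and CHOP induce, read 393 on DKO, 256 on p53 KO and 334 on WT. Its other probe set, near the floor at 113, 146 and 143, had another order of arrays, with -0.37 between DKO and p53 KO in place of 0.62. Chac1, a glutathione-degrading enzyme downstream of the same factors, reached the floor on p53 KO alone, at 189.8. Chac1 was thus at least 0.78 higher on p53 KO than on WT or DKO. Over the 5 genes the median log2 difference was 0.24 for DKO against WT, 0.14 for p53 KO against WT and 0.08 between DKO and p53 KO.

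**Figure D2:**
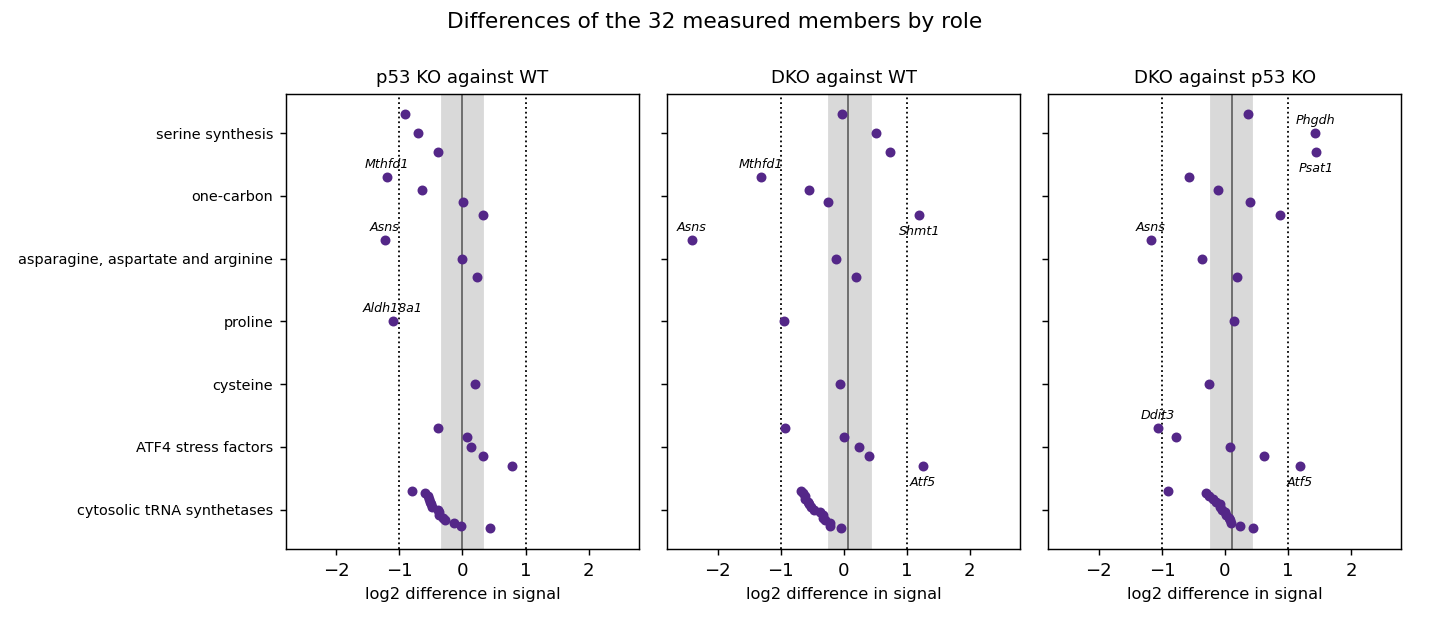
Log2 difference in signal of the 32 measured genes (points) by role, in a panel for each comparison, where the grey band runs between the quartiles of all 12597 measured genes, the solid line is their median and dotted lines mark 2-fold. Genes past 2-fold are named. Left of the median line lie all 15 synthetases for DKO against WT, 14 of 15 for p53 KO against WT (all but Aars) and 13 of 15 between DKO and p53 KO (all but Kars and Tars).

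The 15 cytosolic tRNA synthetases were a little lower on both knockout arrays than on WT, and none was 2-fold apart. For DKO against WT all 15 were lower (14 of 15 after quantile normalization, and 13 of 14 by probe sets without a cross-matching mark), with log2 differences from -0.68 (Gars) to -0.04 (Tars) and a median of -0.47. For p53 KO against WT 14 of 15 were lower, with a median of -0.38 and a range from -0.80 (Kars) to 0.44 (Aars). Over all 12597 measured genes, 41.1% were lower and 55.9% higher for DKO against WT, and 47.0% lower and 46.2% higher for p53 KO against WT. Among the 7128 genes whose mean signal was at or over the 75th percentile of signals (448.4), a range that takes in every synthetase here but Cars, the lower shares were 52.9% and 55.1%. The median log2 difference of those brighter genes was -0.03 for DKO against WT and -0.07 for p53 KO against WT. Both comparisons share the WT array, so a property of that array cannot be told apart from loss of p53.

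Hars, the histidine enzyme, read 10102 on DKO, 12018 on p53 KO and 15492 on WT, and Kars, the lysine enzyme, read 4703, 3974 and 6916. Gars, which charges glycine in cytosol and mitochondria, read 2925, 3214 and 4671, and Iars, for isoleucine, read 4128, 4365 and 6133. WT was the highest array for each of these genes. Lars, for leucine, read 3263 on DKO, 3459 on p53 KO and 4968 on WT. Eprs, which joins the glutamate and proline enzymes in a single chain, read 3691, 3634 and 5270.1, and Yars, for tyrosine, read 827, 855 and 1292. By these brightest probe sets the knockout arrays were nearly equal for Lars, Eprs and Yars and lay 1.43-fold to 1.56-fold below WT. Another Eprs probe set set them apart, at 1819.5 on DKO, 1049 on p53 KO and 2399 on WT.

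Nars, for asparagine, read 6290.3 on DKO, 6007 on p53 KO and 7297 on WT by its brightest probe set and 2142 on DKO, 2988 on p53 KO and 3300.5 on WT by the other. Sars, for serine, read 1557, 1767 and 1944 by its brightest and 1619 on DKO, 1236 on p53 KO and 1966 on WT by the other. WT was highest by each of these probe sets, but the order of the knockout arrays turned between them in both genes. Vars, for valine, read 1797 on DKO, 1799.6 on p53 KO and 2339 on WT, and Mars, for methionine, read 2641, 2487 and 3245. Wars, for tryptophan, read 1399, 1315 and 1625 by its brightest probe set. Tars read 1621 on DKO, 1186 on p53 KO and 1669 on WT, so DKO was level with WT and p53 KO alone was low. Cars, for cysteine, was dim at 246, 304 and 309. Aars, the alanine enzyme, had its own order, at 1728 on DKO, 3239 on p53 KO and 2391 on WT. It was the 1 synthetase higher on p53 KO than on WT, and for DKO against p53 KO it had the largest synthetase difference, -0.91. Its other single-gene probe set, at 863 on DKO, 1649.6 on p53 KO and 1392 on WT, kept that order, while a probe set shared with Exosc6 did not, at 805, 554 and 779.9.

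Between DKO and p53 KO, 6 of the 15 synthetases were higher on DKO and 9 lower, with a median of -0.05 beside 0.11 over all measured genes. Against that all-gene median 13 of 15 lay below it, and against the median of the brighter genes, 0.07, 11 of 15 did. The synthetase median of -0.05 changed sign in some settings, to 0.0010 after quantile normalization and 0.01 by probe sets without a cross-matching mark. Of all measured genes, 58.8% were higher and 39.7% lower, and of the brighter genes 44.4% were lower. Over 5494 genes with another measured probe set, the median gap between the log2 differences of both was 0.33 for DKO against WT, 0.29 for p53 KO against WT and 0.34 between DKO and p53 KO, a size close to that of many synthetase differences. Counting every measured single-gene probe set of the synthetases, 24 of 25 were lower for DKO against WT and 23 of 25 for p53 KO against WT. Of all measured genes 41.1% and 47.0% were lower, and the share over all probe sets was not calculated. Some of the 25 read the same gene, such as 4 for Wars and 3 for Eprs, so this count is not independent of the count of genes. The only 2-fold difference among the 25 probe sets was a further Eprs probe set at -1.19 for p53 KO against WT. On the same arrays the 5 named proliferation genes had a median of -0.47 for DKO against WT and 0.48 for p53 KO against WT, and their part in the synthetase values was not tested.

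**Figure D3:**
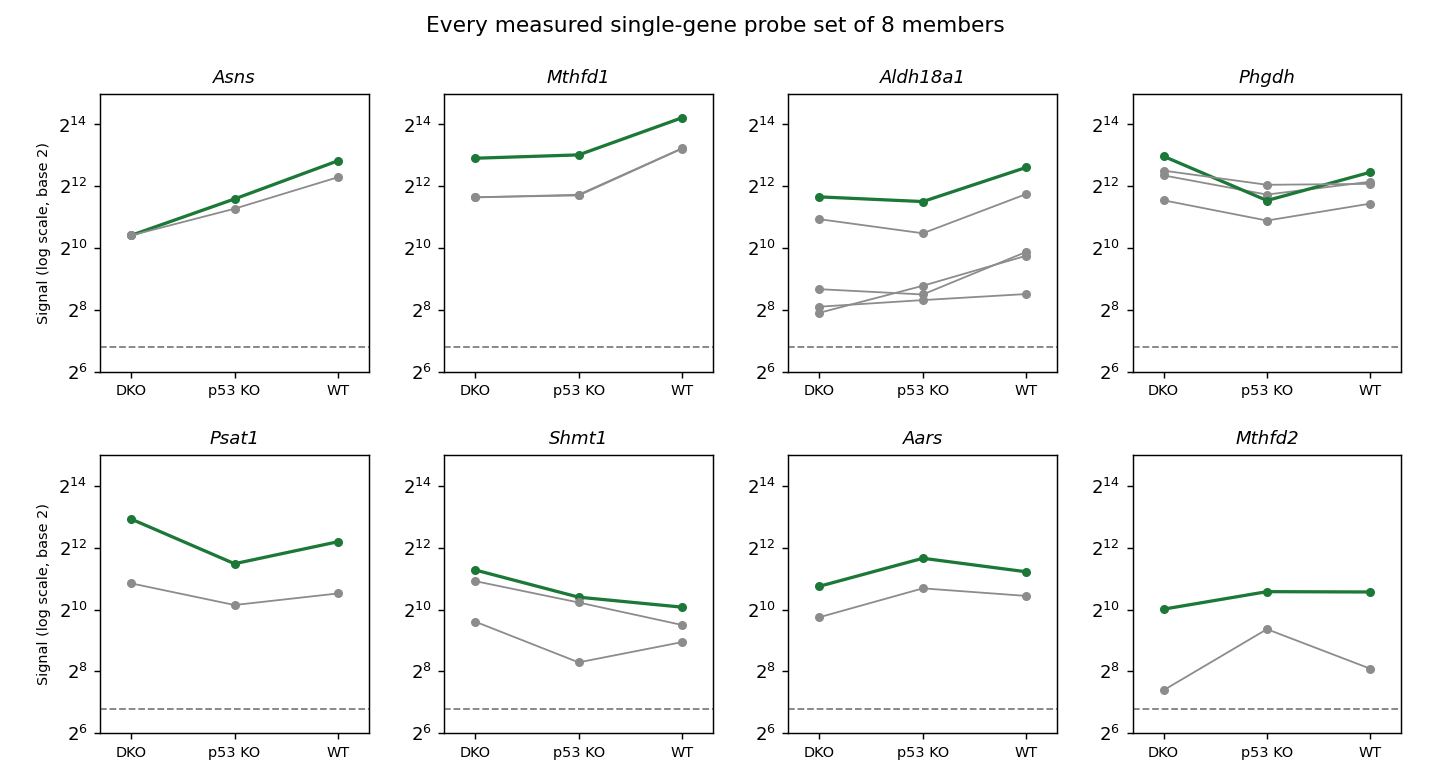
Signal (y axis, log scale with base 2) on the DKO, p53 KO and WT arrays of every measured single-gene probe set of 8 genes, with the brightest in green, the others in grey and the floor dashed. Lines keep the same order of arrays for Asns, Mthfd1, Phgdh, Psat1, Aars and Mthfd2, though p53 KO stands well above WT for Mthfd2 by the dimmer probe set alone. The order changes between p53 KO and WT for Shmt1, and between DKO and p53 KO for Aldh18a1.

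Other genes of tRNA charging were listed for comparison. Of 4 further cytosolic synthetases measured, 4 were lower in each comparison with WT, with medians of -0.21 for DKO and -0.50 for p53 KO, where 41.1% and 47.0% of all measured genes were lower. Between DKO and p53 KO all 4 were higher on DKO, with a median of 0.29, where 58.8% of all measured genes were higher. Farsa, the alpha subunit of the phenylalanine enzyme, was furthest, at 864 on DKO, 560.7 on p53 KO and 1446 on WT, or -1.37 for p53 KO against WT. The 3 scaffold genes of the multi-synthetase complex were lower too, with Eef1e1 at -0.75 for DKO and -0.88 for p53 KO, Aimp1 at -0.50 and -0.82, and Aimp2 at -0.22 and -0.49. Between DKO and p53 KO these 3 were higher on DKO, with a median of 0.27.

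Of the mitochondrial synthetases 15 were measured. For DKO against WT 11 of 15 were lower, with a median of -0.18, and for p53 KO against WT 14 of 15 were lower and 0 higher, with a median of -0.51. Of all measured genes 41.1% and 47.0% were lower in the same order. For DKO against p53 KO 13 of 15 were higher, with a median of 0.45, beside 58.8% of all measured genes higher and a median of 0.11. Yars2 led, at 2134 on DKO, 841 on p53 KO and 2264 on WT, which is 1.34 for DKO against p53 KO. Tars2 followed at 1372 on DKO, 749 on p53 KO and 1864 on WT. In both genes DKO and WT were the closer pair and p53 KO was low. Whether the cytosolic and mitochondrial lists differ was not tested.

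**Figure D4:**
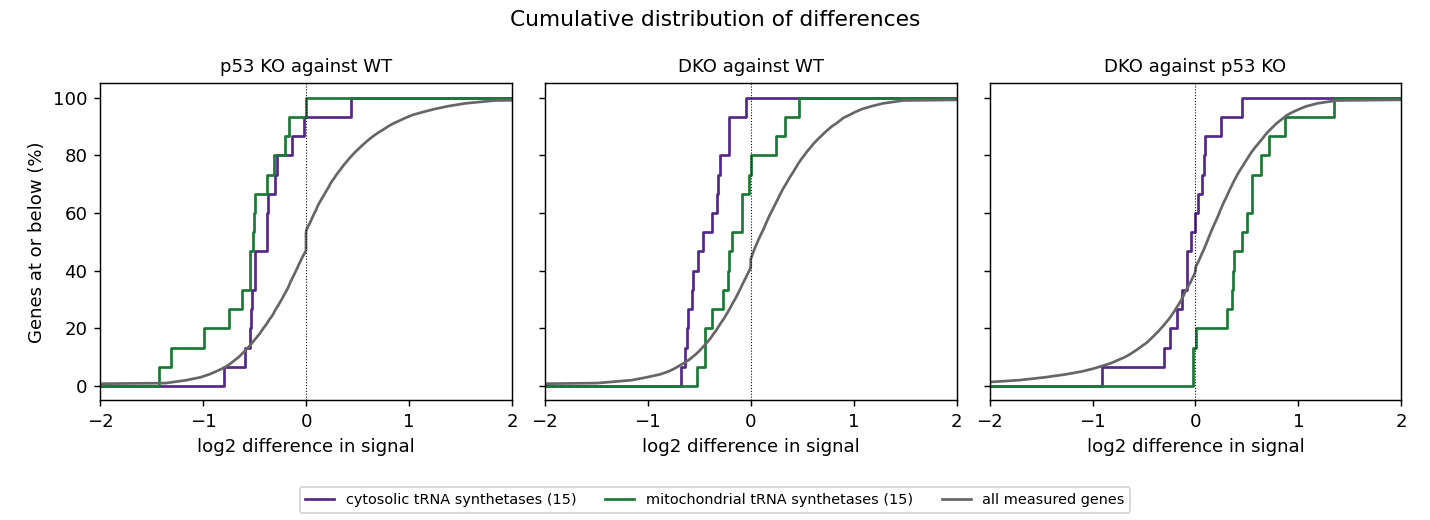
Cumulative share of genes (y axis, percent) at or below each log2 difference (x axis) for 15 cytosolic and 15 mitochondrial tRNA synthetases and all 12597 measured genes, in a panel for each comparison. The cytosolic curve lies left of all genes in both comparisons with WT except in the lower tail, where its lowest gene is at -0.68 for DKO and -0.80 for p53 KO. Most of the mitochondrial curve is left of all genes for p53 KO against WT but right of them between DKO and p53 KO.

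Of the folate and methyl cycle genes outside the list, 11 were measured. For DKO against WT 8 were lower, with a median of -0.52, and for p53 KO against WT 9 were lower, with a median of -0.69, beside 41.1% and 47.0% of all measured genes lower. Between DKO and p53 KO 6 were higher on DKO, with a median of 0.18, where 58.8% of all measured genes were higher. Mtrr, which reactivates methionine synthase, read 463 on DKO, 383 on p53 KO and 869.7 on WT, or -0.91 and -1.18 against WT. Dld, a subunit of the glycine cleavage and pyruvate dehydrogenase complexes, was at -1.12 for DKO against WT, and Mthfd1l, the mitochondrial enzyme that releases formate, was at -0.81 for DKO and -0.76 for p53 KO. Other genes ran the other way: Tyms, the thymidylate synthase gene, was at 0.91 for p53 KO against WT, and Mthfd2l, a mitochondrial relative of Mthfd2, was at 1.03 between DKO and p53 KO.

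Upstream of ATF4, the eIF2alpha kinases and the phosphatase subunits that oppose them had 6 measured genes, of which 2 were at least 2-fold higher on p53 KO than on WT, beside 6.51% of all measured genes. Ppp1r15a, the stress-induced phosphatase subunit GADD34, read 723 on DKO, 3066 on p53 KO and 871 on WT, or 1.82 for p53 KO against WT and -2.09 between DKO and p53 KO. Eif2ak1, the haem-regulated kinase that is prominent in red cell precursors, read 524 on DKO, 1378 on p53 KO and 566 on WT. The summed erythroid signal was also highest on p53 KO, but the erythroid list split. For p53 KO against WT 4 of its 7 genes were higher, with Alas2 at 2.68, and 3 lower, with Klf1 at -0.51. Over all measured genes 46.2% were higher and 47.0% lower. The part of erythroid cells in the Eif2ak1 value was not tested. Eif2ak4, which encodes GCN2, was at -0.91 for p53 KO against WT and 0.75 between DKO and p53 KO.

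ATF4 targets outside the list ran both ways. Of 18 measured, 3 were at least 2-fold higher and 0 lower for DKO against WT, 2 higher and 1 lower for p53 KO against WT, and 3 higher and 2 lower between DKO and p53 KO. Over all measured genes the shares higher and lower were 5.22% and 3.10%, 6.51% and 3.19%, and 4.10% and 5.93% in the same order of comparisons. Vldlr, a lipoprotein receptor gene, read 3765 on DKO, 1707 on p53 KO and 1099 on WT (1.78 for DKO against WT), and Ddit4, an inhibitor of mTORC1, read 1409, 593 and 622 (1.18). The median of the list was -0.01 for DKO against WT, 0.21 for p53 KO against WT and -0.11 between DKO and p53 KO. Vegfa, the vascular growth factor gene, was at -1.25 for p53 KO against WT, while Cebpb, a bZIP factor that can pair with ATF4, was at 1.19 and Slc1a5, a glutamine transporter gene, at 1.24. Cebpb is also a myeloid gene, and it read 120 on DKO, 354 on p53 KO and 155 on WT. The summed monocyte and macrophage signal was 14762 on DKO, 30608 on p53 KO and 8675 on WT. Both were highest on p53 KO, but DKO was below WT for Cebpb and above it for the sum. The part of myeloid cells in the Cebpb value was not tested.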

How the data were processed

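Total RNA of LSK cells was purified on RNeasy columns and labelled by a single amplification cycle for Affymetrix arrays, per the labels' protocols, with 1 array for each of 3 genotypes. The deposited file holds linear signal intensities of 45101 probe sets, made by the authors with GCOS and MAS5 per the submitters' processing notes, with versions not given in the sources used here. Their 2% trimmed mean was 500 on each array, so they carry global scaling, and they were kept as scaled. The number of arrays limits the precision, and no detection calls were used.

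Probe sets were named from the platform annotation, with symbols updated through the Entrez ID in the RefSeq table (GRCm38.p6). Of these, 34958 carried 1 gene, 932 several and 9211 none. A probe set without a name is unnamed here, not without a gene. The brightest single-gene probe set by mean of the 3 arrays stood for a gene, signals under the median of all signals (110.4) were set to it, and log2 differences were taken. A gene at the floor on 1 side gives a lower bound, written "at least", and on both sides counts as 0. Calls are differences of at least 2-fold, with no test at 1 array per group. Python 3.11.15 and, for cyclic loess, limma 3.58.1 were used, and the calculation was tested on simulated data.

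The genes, the 7 further lists with 92 entries, the 8 marker lists and the alternatives were chosen with earlier results of these data known. The background of bright genes and the mean over measured probe sets were added after seeing the data. All listed genes are named. Of each further list at most 3 genes with the largest differences in a comparison are named, and marker genes where they bear on a result. Alternatives were other scalings, floors, probe set rules and fold thresholds.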

Additional observations from a re-analysis of the deposited data

How the results depend on the processing

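Of the 12 differences past 2-fold, recalculated 111 times with other scalings, floors and probe set rules, 97 stayed past 2-fold, 14 fell short and 0 changed sign. Some of these settings could hardly move a value, such as trimmed mean rescaling, since that mean was already 500 on each array. A lower floor cannot move a gene whose signals all lie above it. Where a second brightest probe set was measured, 3 of 3 differences stayed past 2-fold by it in each comparison with WT. Between DKO and p53 KO 0 of 3 did. Mthfd1 and Asns stayed past 2-fold against WT in all 10 settings for both knockout arrays. Of 759 recalculated differences under 2-fold, 11 passed it. The mean of all probe sets counts a probe set under the floor on every array as 0, so a mean of measured probe sets alone was added after seeing the data. For p53 KO against WT the number of genes at least 2-fold higher was 0, or 1 with a 25th percentile floor, with a pseudocount of 32, by the second brightest probe set or at 1.5-fold. The number lower was 3, or 2 by either mean, 8 at 1.5-fold and 0 at 3-fold. For DKO against WT the number higher was 2, or 1 after cyclic loess, with the floor at the 75th percentile, by the mean of all probe sets, by probe sets without a cross-matching mark or by the second brightest, 3 at 1.5-fold and 0 at 3-fold. The number lower was 2, or 3 after quantile normalization or cyclic loess, by either mean or without marks, 8 at 1.5-fold and 1 at 3-fold. For DKO against p53 KO the number higher was 3, or 2 after cyclic loess, with the floor at the 75th percentile or by either mean, 0 without marks, by the second brightest or at 3-fold, and 5 at 1.5-fold. The number lower was 2, or 3 by the mean of measured probe sets, 1 with the floor at the 75th percentile, with a pseudocount, without marks or by the second brightest, 4 at 1.5-fold and 0 at 3-fold. The second brightest probe set existed for 17 genes and a probe set without marks for 26, so those counts cover fewer genes. The median for DKO against p53 KO, 0.01, changed sign to -0.0225 after cyclic loess, -0.0024 with the floor at the 25th percentile, -0.0249 by either mean, -0.0249 without marks and -0.0890 by the second brightest, and the cause was not tested. Cyclic loess moved the median of all measured genes for DKO against p53 KO to 0.01, against 0.11. For DKO against WT it put 3.47% of all measured genes at least 2-fold higher and 3.91% lower, against 5.22% and 3.10%. The synthetase medians kept their sign in every setting for both comparisons with WT, from -0.52 to -0.32 for p53 KO and from -0.62 to -0.41 for DKO. No paired analysis was possible because each group holds 1 array.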

Other observations

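Among 16 other measured genes of amino acid synthesis and breakdown, Oat, the aminotransferase that links ornithine to the proline precursor, read 2480 on DKO, 2961 on p53 KO and 6400.4 on WT, log2 differences of -1.37 for DKO against WT and -1.11 for p53 KO against WT. Srr, the serine racemase gene, read 479 on DKO, 949.6 on p53 KO and 1218 on WT (-1.35 for DKO against WT). Aldh4a1, which catalyses the last step from proline to glutamate, read 138 on DKO and 225 on WT and was under the floor on p53 KO. Its -1.03 for p53 KO against WT is thus a bound, at least that far below. Arg2, the mitochondrial arginase, was under the floor on DKO and read 264 on p53 KO and 126 on WT, which is 1.07 for p53 KO against WT. Bckdha, a subunit of the enzyme that breaks down branched-chain amino acids, was at 1.14 for DKO against p53 KO, with 1013 on DKO and 459 on p53 KO. Over the 16 genes the medians were 0.08 for DKO against WT, -0.26 for p53 KO against WT and 0.13 between DKO and p53 KO.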
